A study of Mus musculus with 6 samples.

Results

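Epithelial-mesenchymal transition (EMT) is controlled by a small set of regulators, and 10 of them are described here in 4T1 cells that express METTL7A1 and in mock cells. They were taken by gene symbol, and all 10 were found among the 48587 genes of the count table. 6 encode transcription factors that repress epithelial genes: Zeb1, Zeb2, Snai1, Snai2, Twist1 and Twist2. The other 4 maintain the epithelial state: Grhl2, Ovol1, Esrp1 and Esrp2.

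The ZEB and SNAIL proteins bind E-box sequences in promoters of junction genes such as Cdh1 (E-cadherin) and recruit corepressors there, while TWIST1 binds E-boxes as a dimer with other basic helix-loop-helix (bHLH) proteins. GRHL2 activates junction genes and, like OVOL1, represses Zeb1, and the paralogous RNA-binding proteins ESRP1 and ESRP2 select the epithelial exons of transcripts such as Fgfr2, Cd44 and Ctnnd1. MicroRNAs of the miR-200 family target the Zeb1 and Zeb2 mRNAs, and the ZEB proteins in turn repress the miR-200 genes.

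4T1 is a mouse mammary gland cancer line. Total RNA was sequenced from 3 libraries of METTL7A1 cells, stably transfected with the full-length Mettl7a1 cDNA in the vector pBICEP-CMV-2 by lipofection, and from 3 libraries of mock cells. Both were grown in DMEM/F12 with 10% FBS, and the labels give selection in 350 µg/ml G418 for the samples of both groups. The labels call the libraries biological triplicates. They do not say whether either line was 1 clone or a pool, so a property of the transfected line and an action of METTL7A1 cannot be told apart. The comparison of METTL7A1 with mock asked which transcripts differ when METTL7A1 is expressed in these carcinoma cells.

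Library totals lay between 18386780 and 28459338 counts. The transfected gene Mettl7a1 had 6355, 11358 and 10398 counts in the METTL7A1 libraries, here and below in the order of replicates 1 to 3, against 30, 30 and 29 in the mock libraries, so that every library followed its label. All 6 mammary epithelial markers were tested, and their summed abundance was 1936 to 2290 cpm (counts scaled to library size) in METTL7A1 and 1757 to 2136 cpm in mock libraries. Of 4 leukocyte markers, Cd68 and Csf1r were higher in METTL7A1 cells, Ptprc was at 0.232 and 0.209 cpm in METTL7A1 and mock libraries and Cd3e had 0 counts. Of 6 fibroblast markers only Pdgfra passed the abundance filter, and it was higher (24.5 against 17.7 cpm). The transcript AY036118 ranged from 4974 to 145685 cpm, with the highest value in mock replicate 1. Gm42418, which spans it on the opposite strand, was lower in METTL7A1 cells (log2 fold change -1.03, edgeR adjusted p = 0.0107). The source of these uneven counts was not tested. Without mock replicate 1 the same number of regulators was called.

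Of the 10 regulators, 7 passed the filter of at least 1 cpm in at least 3 libraries, and 2 of these 7, Twist1 and Esrp1, differed between the groups at an adjusted p under 0.05 (edgeR quasi-likelihood test, Benjamini-Hochberg adjusted over 13166 genes). Both were lower in METTL7A1 cells. Over all genes tested 42.1% were called in this way, 21.1% higher and 21% lower. None of the 7 passed the thresholds of the study (adjusted p under 0.01 and a log2 fold change over 1.5 in either direction), against 2.48% of all genes. The libraries of the groups did not overlap for 4 of the 7 (Zeb2, Twist1, Esrp1 and Esrp2), against 51.6% of all genes. Zeb1, Snai2 and Twist2 were under the filter. The median log2 fold change of all genes was -0.03. In bulk RNA, fewer cells that express a gene and less RNA per cell cannot be told apart.

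**Figure D1:**
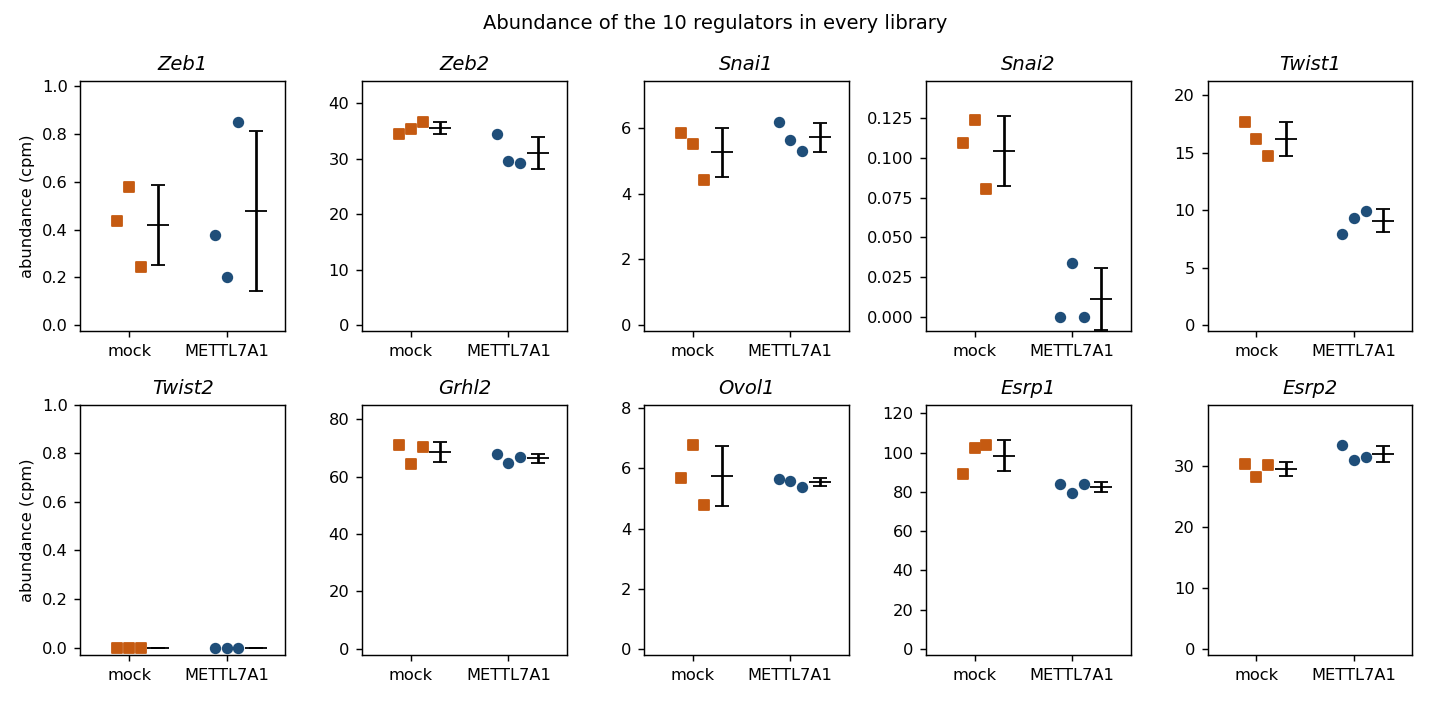
Abundance in cpm (y axis, from 0, a scale of its own in each panel) of the 10 regulators in the 3 mock (squares) and the 3 METTL7A1 libraries (circles), with the mean and SD of each group beside them. Twist1 and Esrp1 lie lower in all 3 METTL7A1 libraries, Zeb1 and Snai2 stay under 1 cpm and Twist2 is at 0.

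Twist1 encodes a bHLH factor that represses Cdh1 and drives invasion, and it showed the largest difference among the tested regulators. The gene (chromosome 12, 33957671 to 33959817, + strand; mm10) was counted 148, 275 and 246 times in METTL7A1 and 324, 392 and 366 times in mock libraries. Its abundance was 7.98, 9.31 and 9.98 cpm in METTL7A1 and 17.7, 16.2 and 14.7 cpm in mock libraries. Every METTL7A1 library lay below every mock library. Mean Twist1 abundance fell to 9.09 ± 1.02 cpm from 16.2 ± 1.49 cpm in mock (SD, n = 3 each), a ratio of 0.564 (95% interval 0.471 to 0.676). On the log2 scale this is -0.83 (SE 0.118; edgeR adjusted p = 0.000255), and Twist1 was called whichever library was left out.

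The neighbours of Twist1 on chromosome 12 were lower as well. Of the 40 nearest genes with an average log2 cpm over 2, which reach 9.43 Mb from Twist1, 38 had a negative log2 fold change and 32 were called lower. Their median log2 fold change was -0.51, and Twist1 ranked 5 from the lowest among these 41 genes. Relative to the mock mean, the median of the neighbours was -0.47, -0.52 and -0.48 on the log2 scale in METTL7A1 replicates 1 to 3 and between -0.03 and 0.02 in the mock libraries. All 3 METTL7A1 libraries thus held the same shift of the neighbourhood. With the neighbours' median as an offset, the log2 fold change of Twist1 was -0.32 and its adjusted p 0.0621 (edgeR), no longer past the threshold.

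The promoter of Twist1 is shown beside that of Snai1, because these were the tested repressors with a single start among the RefSeq promoter windows used here. The stretches are the 250 bases before the start (GRCm38.p6, + strand, 5′ to 3′), chr12:33957421-33957670 for Twist1 and chr2:167537945-167538194 for Snai1. Capitals mark CACCTG, the E-box that ZEB and SNAIL proteins bind, or its reverse complement CAGGTG.
Twist1: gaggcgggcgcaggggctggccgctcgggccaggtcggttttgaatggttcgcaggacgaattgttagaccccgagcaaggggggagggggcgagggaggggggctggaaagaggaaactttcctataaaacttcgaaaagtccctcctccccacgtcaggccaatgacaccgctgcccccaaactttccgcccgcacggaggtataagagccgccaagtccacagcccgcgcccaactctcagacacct
Snai1: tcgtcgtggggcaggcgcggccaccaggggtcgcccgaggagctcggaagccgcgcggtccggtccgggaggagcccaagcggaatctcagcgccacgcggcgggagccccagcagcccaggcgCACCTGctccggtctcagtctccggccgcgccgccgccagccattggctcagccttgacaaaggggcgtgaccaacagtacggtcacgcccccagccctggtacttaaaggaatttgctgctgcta
The Twist1 stretch held no match. The Snai1 stretch held 1, whose first base lies 126 bases before the start. Either spelling occurred in 20.2% of all 32851 promoter windows of 300 bases (250 before the start and 50 from it on). Of the 10 regulators 4 had such windows (Twist1, Twist2, Snai1 and Zeb2), and Snai1 was the only one of these with a match.

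Snai1 encodes the zinc-finger repressor SNAIL. The gene (chromosome 2, 167538195 to 167542814, + strand) was counted 115, 167 and 131 times in METTL7A1 and 107, 134 and 110 times in mock libraries. This gave 6.20, 5.65 and 5.31 cpm in METTL7A1 and 5.85, 5.53 and 4.43 cpm in mock libraries. The groups overlapped. The log2 fold change was 0.12 with a 95% interval from -0.22 to 0.46 (edgeR adjusted p = 0.565), an interval that covers ratios from 0.86 to 1.37. The 40 neighbours of Snai1 centred on a log2 fold change of 0.19, and 30 were positive.

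The ratio of Twist1 to Snai1, both taken per kilobase of exon, described how the repressors stood to each other within a library. It was 1.29, 1.65 and 1.88 in the METTL7A1 libraries against 3.04, 2.93 and 3.34 in the mock libraries. The mean was 1.61 ± 0.299 in METTL7A1 and 3.10 ± 0.209 in mock cells (SD, n = 3 each), and the groups did not overlap. An exact two-sided permutation test gave p = 0.1, the smallest value that 3 against 3 libraries allow, and 0.1 after adjustment over the 2 ratios tested.

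Zeb2 encodes a zinc-finger homeobox repressor (SIP1). The gene (chromosome 2, 44983632 to 45117395, - strand) was counted 637, 874 and 719 times in METTL7A1 and 631, 856 and 910 times in mock libraries. Scaled to library size, the abundance was 34.3, 29.6 and 29.2 cpm in METTL7A1 and 34.5, 35.3 and 36.6 cpm in mock libraries. METTL7A1 replicate 1 lay just under the mock libraries and the other METTL7A1 libraries lay lower. The log2 fold change was -0.20 with a 95% interval from -0.38 to -0.02 before adjustment (edgeR adjusted p = 0.0767), and Zeb2 did not pass the test. Without METTL7A1 replicate 1 it did, with a log2 fold change of -0.26 (edgeR adjusted p = 0.0204). The 40 neighbours had a median log2 fold change of -0.15, and with that offset the log2 fold change of Zeb2 was -0.05 (edgeR adjusted p = 0.701). Exons of Zeb2 overlap Mir5129 on the same strand, which had at most 4 counts, and Zeb2os on the opposite strand, which had 2 to 15.

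The sequences through which miR-200 microRNAs recognise Zeb2 are shown because this family links the ZEB repressors to the epithelial state. The mature 3p sequences (RefSeq, GRCm38.p6, 5′ to 3′) are given with the seed, bases 2 to 8, in capitals.
mmu-miR-200b-3p: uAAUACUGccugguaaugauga
mmu-miR-200c-3p: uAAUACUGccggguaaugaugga
mmu-miR-429-3p: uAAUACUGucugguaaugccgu
mmu-miR-200a-3p: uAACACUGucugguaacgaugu
mmu-miR-141-3p: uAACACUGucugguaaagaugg
The first 3 share the seed AAUACUG and the last 2 the seed AACACUG. The longest annotated 3′ untranslated region of Zeb2 (4941 bases, GENCODE M21) held 5 matches to the first seed and 4 to the second. That of Zeb1 (2401 bases) also held 5 and 4. Among untranslated regions within 20% of these lengths, 66.1% of 1045 and 46.6% of 2652 held any match, and none held as many as 9. A match is a stretch of letters and not a measured site. The first Zeb2 match of each kind is printed with its surroundings (GRCm38, - strand, 5′ to 3′), the match in capitals, from chr2:44988346-44988375 for the second seed and from chr2:44988162-44988191 for the first.
Zeb2 match to AACACUG: aaaattttgtaCAGTGTTaaggcctaaaaa
Zeb2 match to AAUACUG: ctaccatacatCAGTATTttattattatta

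The genes of the miR-200 family were all under the abundance filter. The libraries were made from total RNA, and reads on these short genes do not measure the mature microRNAs. Mir200a, on chromosome 4, had the most, with 17, 28 and 10 counts in METTL7A1 and 5, 11 and 12 counts in mock libraries, and its groups overlapped in cpm. On chromosome 6, Mir141 had 6, 9 and 5 counts in METTL7A1 against 1, 2 and 4 in mock libraries and Mir200c 2, 8 and 5 against 1, 2 and 0. In cpm all METTL7A1 libraries lay above all mock libraries for both, at 9 or fewer counts in every library. The groups did not overlap for 51.6% of all genes tested. Without the abundance filter 4 genes of the family were fitted and 0 were called. Mir200b had 1 to 5 counts and Mir429 had 0 in every library.

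Zeb1, the paralog of Zeb2 on chromosome 18, was close to absent. It was counted 7, 6 and 21 times in METTL7A1 and 8, 14 and 6 times in mock libraries. The corresponding values were 0.377, 0.203 and 0.852 cpm against 0.437, 0.578 and 0.242 cpm, and the groups overlapped. In a fit without the abundance filter its log2 fold change was 0.21 (edgeR adjusted p = 0.788). Per kilobase of exon Zeb1 stood at 0.0722 cpm in mock cells, against 3.10 cpm for Zeb2.

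Snai2 (SLUG) and Twist2 are the paralogs of Snai1 and Twist1. Snai2 (chromosome 16, 14705852 to 14709395, + strand) was counted 0, 1 and 0 times in METTL7A1 and 2, 3 and 2 times in mock libraries. All values lay at or under 3 counts, so that no fold change is given. Twist2 (chromosome 1, 91801461 to 91848028, + strand) had 0 counts in all 6 libraries. A count of 0 allows up to 3 counts, or 0.102 to 0.164 cpm depending on the library, and this limit covers counting error only.

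Grhl2 encodes the grainyhead-like factor that sustains Cdh1 and claudin expression. The gene (chromosome 15, 37233036 to 37363569, + strand) was counted 1259, 1912 and 1646 times in METTL7A1 and 1298, 1565 and 1749 times in mock libraries. Its abundance was 67.8, 64.7 and 66.7 cpm in METTL7A1 and 71.0, 64.6 and 70.4 cpm in mock libraries. The groups overlapped, and the values spread little. The log2 fold change was -0.05 with a 95% interval from -0.20 to 0.10 (edgeR adjusted p = 0.611), which leaves room for a ratio between 0.873 and 1.07. The 40 neighbours had a median log2 fold change of -0.15, and Grhl2 ranked 29 from the lowest of 41.

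Ovol1, a zinc-finger repressor of Zeb1, was the least abundant of the tested epithelial regulators. The gene (chromosome 19, 5549137 to 5560575, - strand) was counted 105, 165 and 133 times in METTL7A1 and 104, 164 and 119 times in mock libraries. This gave 5.66, 5.59 and 5.39 cpm in METTL7A1 and 5.69, 6.77 and 4.79 cpm in mock libraries. The METTL7A1 libraries lay within the range of the mock libraries. The log2 fold change was -0.05 with a 95% interval from -0.40 to 0.29 (edgeR adjusted p = 0.816).

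Esrp1 was the most abundant of the 10 regulators per length and the second that passed the test. The gene (chromosome 4, 11331933 to 11386783, - strand) was counted 1558, 2349 and 2077 times in METTL7A1 and 1634, 2479 and 2575 times in mock libraries. Scaled to library size, this was 84.0, 79.5 and 84.2 cpm in METTL7A1 and 89.3, 102 and 104 cpm in mock libraries. Every METTL7A1 library lay below every mock library, mock replicate 1 being the nearest. Mean Esrp1 abundance fell to 82.6 ± 2.64 cpm from 98.4 ± 7.91 cpm in mock (SD, n = 3 each), a ratio of 0.838 (95% interval 0.748 to 0.94). On the log2 scale this is -0.25 (SE 0.0751; edgeR adjusted p = 0.018). The call was lost without METTL7A1 replicate 2 (log2 fold change -0.23, edgeR adjusted p = 0.1) and without mock replicate 2 (-0.23, 0.059). The 40 neighbours of Esrp1 had a median log2 fold change of -0.22, 32 of them negative, and with that offset the log2 fold change of Esrp1 was -0.04 (edgeR adjusted p = 0.749).

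Esrp2 did not pass the test. The gene (chromosome 8, 106130319 to 106136974, - strand) was counted 618, 911 and 773 times in METTL7A1 and 554, 683 and 746 times in mock libraries. Its abundance was 33.3, 30.8 and 31.3 cpm in METTL7A1 and 30.3, 28.2 and 30.03 cpm in mock libraries. Every METTL7A1 library lay above every mock library by a small margin. The log2 fold change was 0.11 with a 95% interval from -0.06 to 0.27 (edgeR adjusted p = 0.271). The neighbours of Esrp2 lay on the other side of 0: their median log2 fold change was -0.19, 32 of 40 were negative, and Esrp2 ranked 36 from the lowest of 41. With the neighbours' median as an offset Esrp2 was higher, with a log2 fold change of 0.30 (edgeR adjusted p = 0.0116). Exons of Esrp2 overlap Nfatc3 on the opposite strand, which had 1550 to 2445 counts and a log2 fold change of -0.12 (edgeR adjusted p = 0.209). The kit marks strand, but the strand setting of the counting is not given in the sources used here, and the part of Nfatc3 reads in the Esrp2 values was not tested.

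The ratio of Esrp1 to Esrp2, each per kilobase of exon, compared the paralogs within each library. It was 2.25, 2.30 and 2.39 in the METTL7A1 libraries against 2.63, 3.23 and 3.08 in the mock libraries. Every METTL7A1 library lay below every mock library. The mean was 2.31 ± 0.0751 in METTL7A1 and 2.98 ± 0.314 in mock cells (SD, n = 3 each; exact two-sided permutation test p = 0.1, the smallest possible with 3 against 3, and 0.1 adjusted over the 2 ratios).

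**Figure D2:**
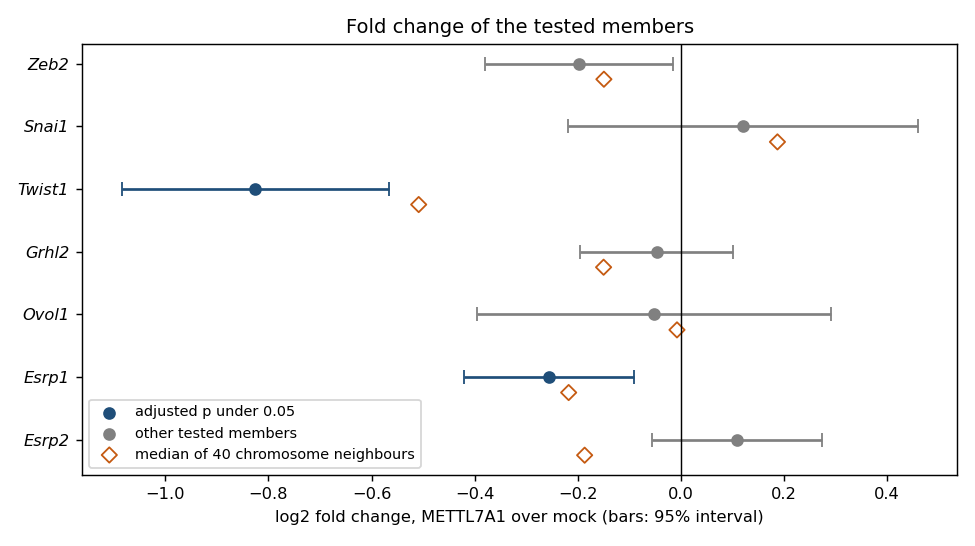
Log2 fold change of METTL7A1 over mock (x axis) of the 7 tested regulators with 95% intervals (bars), and the median log2 fold change of each gene's 40 chromosome neighbours (diamonds). Twist1 lies at -0.83 with its neighbours at -0.51, Esrp1 at -0.25 with its neighbours at -0.22, and Esrp2 at 0.11 with its neighbours at -0.19.

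**Figure D3:**
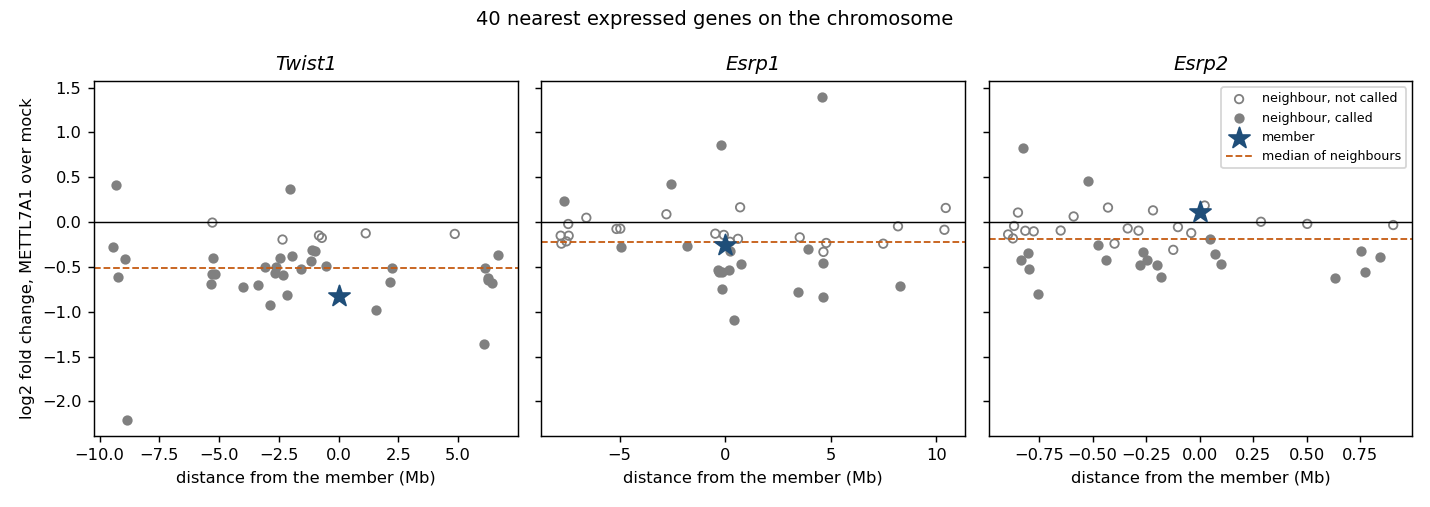
Log2 fold change (y axis) of the 40 nearest expressed neighbours of Twist1, Esrp1 and Esrp2 against their distance from the gene in Mb (x axis), filled where the adjusted p was under 0.05, with the regulator as a star and the neighbours' median as a dashed line. The neighbours of Twist1 lie almost all below 0, those of Esrp1 and Esrp2 mostly so.

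Levels of different genes were compared as cpm per kilobase of exon. In mock cells the order was Esrp1 (24.8), Grhl2 (12.9), Twist1 (10.0), Esrp2 (8.34), Snai1 (3.25), Zeb2 (3.10), Ovol1 (1.98), Zeb1 (0.0722), Snai2 (0.0515) and Twist2 (0). The mock libraries of Snai1 and Zeb2 overlapped, as did those of Zeb1 and Snai2, and the other neighbours in this order did not. In METTL7A1 cells the order was Esrp1 (20.8), Grhl2 (12.5), Esrp2 (9.002), Twist1 (5.62), Snai1 (3.53), Zeb2 (2.71), Ovol1 (1.91), Zeb1 (0.0822), Snai2 (0.00556) and Twist2 (0). Here Snai2 and Twist2 shared values of 0 and no other neighbours in the order overlapped. Twist1 and Esrp2 changed places between the lines: Twist1 had 9.12 to 10.96 cpm per kilobase in mock libraries, above Esrp2 at 7.97 to 8.56, and 4.94 to 6.17 in METTL7A1 libraries, below Esrp2 at 8.72 to 9.42. Both lines thus held Esrp1 and Grhl2 above every repressor.

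The genes whose abundance followed Twist1 most closely were Slirp (Pearson r 0.999 of log2 cpm over the 6 libraries), Cdk20 (0.998) and Matn2 (0.998). Slirp encodes an RNA-binding protein of mitochondria and lies on chromosome 12, Cdk20 encodes a kinase on chromosome 13, and Matn2 a matrix protein on chromosome 15. The chromosome neighbours had median log2 fold changes of -0.49 for Slirp, -0.40 for Cdk20 and -0.15 for Matn2. The 6 libraries form 2 groups, and 826 genes had an r over 0.95 with Twist1, so that the ranking among them is a description.

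The partners of TWIST1 were then examined, since bHLH factors act as dimers and Id proteins, which lack a DNA-binding domain, sequester their E-protein partners. All 7 genes of this list were tested, 3 were called lower and 1 higher, against 21% and 21.1% of all genes. Id2 (chromosome 12, 25093801 to 25096092) was counted 59, 96 and 92 times in METTL7A1 and 262, 431 and 367 times in mock libraries. It fell from 15.6 ± 1.88 to 3.39 ± 0.3 cpm (SD, n = 3 each; log2 fold change -2.20, edgeR adjusted p = 7.66e-07). No METTL7A1 library came near the mock libraries.

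Id3 (chromosome 4, 136143497 to 136145392) had 18.8, 17.9 and 19.1 cpm in METTL7A1 and 54.2, 53.2 and 44.5 cpm in mock libraries (log2 fold change -1.45, edgeR adjusted p = 8.06e-07). Id1 (chromosome 2, 152736251 to 152737410) had 12.9, 14.4 and 12.04 cpm against 24.5, 27.6 and 24.3 cpm (log2 fold change -0.96, edgeR adjusted p = 2.8e-05). For both, every METTL7A1 library lay below every mock library, where the groups did not overlap for 51.6% of all genes. The chromosome neighbours of Id2 had a median log2 fold change of -0.48, those of Id3 of 0.03 and those of Id1 of 0.25. The E protein Tcf4 (chromosome 18) rose from 75.9 ± 5.18 to 106 ± 3.22 cpm (log2 fold change 0.49, edgeR adjusted p = 0.000298; neighbours 0.35). The median log2 fold change of the list was -0.03.

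Corepressors that ZEB, SNAIL or TWIST proteins recruit were called only in the lower direction: 5 of 11 tested were lower and none was higher, against 21% and 21.1% of all genes. Hdac2, a histone deacetylase, fell from 243 ± 18.3 to 142 ± 5.57 cpm (SD, n = 3 each; log2 fold change -0.77, edgeR adjusted p = 2.34e-05). Ajuba, a LIM protein that binds SNAIL, had a log2 fold change of -0.72 (edgeR adjusted p = 2.54e-05). The CtBP corepressors of ZEB proteins also fell, Ctbp2 with a log2 fold change of -0.43 (edgeR adjusted p = 0.00114) and Ctbp1 of -0.45 (edgeR adjusted p = 0.0013). The neighbours had medians of -0.46 for Hdac2, -0.30 for Ajuba, -0.06 for Ctbp2 and -0.04 for Ctbp1. The remaining called corepressor had a log2 fold change of -0.21 (edgeR adjusted p = 0.0288). The 6 corepressors that were not called had log2 fold changes between -0.09 and 0.04, and the list's median was -0.09.

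Among the paralogs of the 10 regulators, 3 of 7 were tested and 2 were lower, against 21% of all genes. Snai3, a zinc-finger relative of Snai1, was counted 13, 28 and 27 times in METTL7A1 and 48, 49 and 44 times in mock libraries (log2 fold change -1.19, edgeR adjusted p = 0.00361; neighbours -0.17). Grhl1 had a log2 fold change of -0.64 (edgeR adjusted p = 0.0133) beside neighbours on chromosome 12 at -0.52. Scrt1 and Scrt2 had 0 counts in every library. The median of the 3 genes tested in the reported fit was -0.64.

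Other transcription factors linked to EMT gave 4 called lower and 0 higher among 8 tested of 12, where 42.1% of all genes were called and 21% were lower. Foxc2, a forkhead factor, had a log2 fold change of -1.19 (edgeR adjusted p = 0.000513), Fosl1 of -0.36 (edgeR adjusted p = 0.0013) and Sox9 of -0.33 (edgeR adjusted p = 0.0257). Their neighbours had medians of -0.17, -0.02 and -0.10. Gsc had 0 counts in every library. The median of the list was -0.19.

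Other epithelial transcription factors gave 3 called higher and 1 lower among 8 tested of 12, where 42.1% of all genes were called and 21.1% were higher. Ehf, an ETS factor of epithelia, had 12.7, 14.2 and 15.4 cpm in the METTL7A1 libraries against 2.43 to 2.68 cpm in the mock libraries. Its mean rose to 14.1 ± 1.33 cpm from 2.54 ± 0.127 cpm in mock (SD, n = 3 each), a ratio of 5.57 (95% interval 4.53 to 6.85; log2 fold change 2.48, edgeR adjusted p = 3.19e-07), and it was the only gene of this list past the thresholds of the study. The ETS factor Elf3 rose with a log2 fold change of 0.48 (edgeR adjusted p = 0.00188) and Foxa1 with 0.47 (edgeR adjusted p = 0.0329), the latter beside 40 neighbours that all had negative log2 fold changes (median -0.51). Klf5 fell, with a log2 fold change of -0.29 (edgeR adjusted p = 0.0106; neighbours -0.31). The median of the list was 0.14.

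Of the genes whose exons ESRP proteins select, 3 were called higher and 1 lower among 10 tested, a share near the 42.1% of all genes. Gene counts sum all exons and do not show which were spliced in. Fgfr2 rose from 63.0 ± 6.15 to 110 ± 4.12 cpm (log2 fold change 0.81, edgeR adjusted p = 2.22e-05), and its annotated exons overlap those of Ctbp2 on the same strand. Ctnnd1, which encodes p120-catenin, had a log2 fold change of 0.53 (edgeR adjusted p = 0.000275), Arhgef11 of 0.20 (edgeR adjusted p = 0.0436) and Numb of -0.57 (edgeR adjusted p = 0.000297; neighbours on chromosome 12 at -0.47). The median of the list was 0.03.

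Other splicing factors of EMT gave 2 called higher and 1 lower among 10 tested, a share under the 42.1% of all genes. Qk had a log2 fold change of 0.40 (edgeR adjusted p = 0.00142), Rbm47 of 0.42 (edgeR adjusted p = 0.00177) and Mbnl2 of -0.42 (edgeR adjusted p = 0.000651). Regulators of the stability of SNAIL and TWIST proteins gave 2 called higher and 0 lower among 10 tested of 12, against 21.1% higher and 21% lower over all genes. The 2 were the kinase genes Csnk2a1 (log2 fold change 0.33, edgeR adjusted p = 0.002) and Csnk1a1 (0.30, edgeR adjusted p = 0.00665). Lox had 0 counts in every library. The medians were 0.01 for the splicing factors and -0.07 for the stability regulators, and without mock replicate 3 the calls were 5 and 4. With the neighbour offset Fbxl14, an F-box protein of SNAIL degradation, was the only stability regulator called (log2 fold change -0.32, edgeR adjusted p = 0.034).

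The neighbour offset sorted the calls named above. Id1, Id2 and Id3 stayed called, with log2 fold changes of -1.20, -1.73 and -1.48, as did Snai3 (-1.02), Hdac2 (-0.30), Ajuba (-0.42), Ctbp1 (-0.40), Ctbp2 (-0.37), Foxc2 (-1.02), Fosl1 (-0.34), Ehf (2.35), Elf3 (0.44) and Foxa1 (0.98). Fgfr2, Ctnnd1, Arhgef11 and Rbm47 were also called with the offset. Tcf4, Grhl1, Sox9, Klf5, Numb, Qk, Mbnl2, Csnk2a1 and Csnk1a1 were not.

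**Figure D4:**
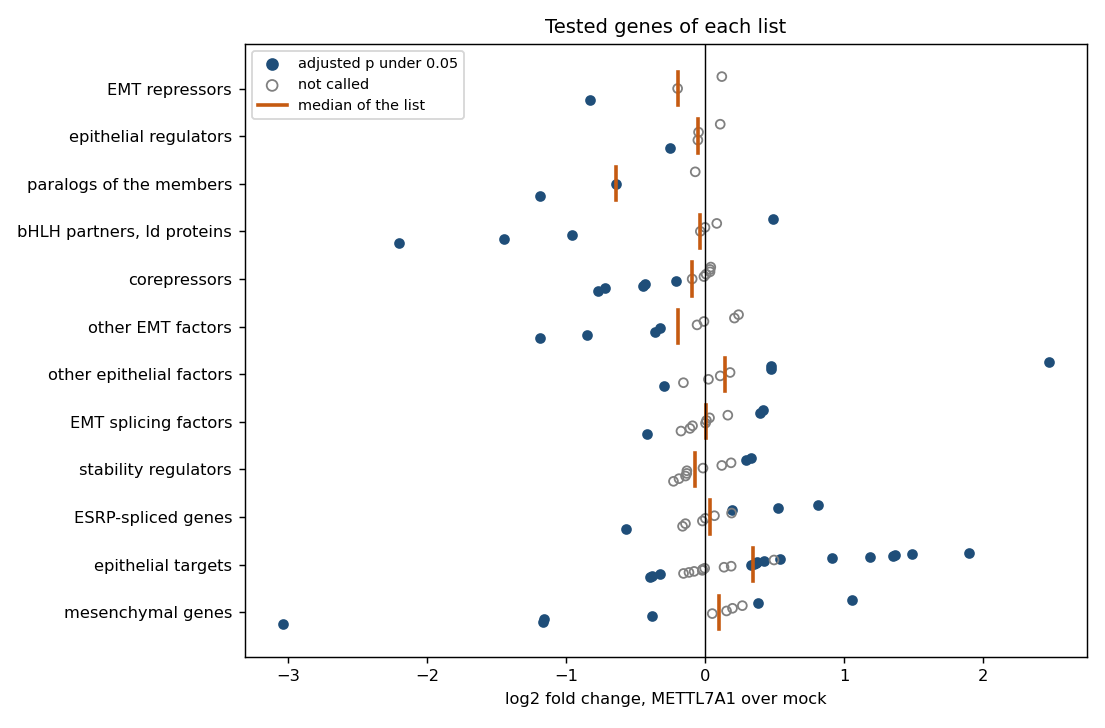
Log2 fold change of METTL7A1 over mock (x axis) of the tested genes of each list (rows), filled where the adjusted p was under 0.05, with the list's median as a bar. The epithelial targets reach from -0.40 to 1.90 with a median of 0.34, and Tnc, at -3.04, is the lowest gene of the mesenchymal list.

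The epithelial genes that ZEB and SNAIL proteins are known to repress formed the longest list. All 24 genes in the table were tested, of which 12 were called higher, 3 lower and 9 neither, against 21.1% higher and 21% lower over all genes. This list, like the others, was chosen with earlier results of these data known, so the contrast is a description. The median of the 24 genes was 0.34 on the log2 scale. Mal2, a protein of apical transport, rose from 34.1 ± 2.19 to 87.7 ± 9.27 cpm (SD, n = 3 each; log2 fold change 1.36, edgeR adjusted p = 1.13e-06). Tjp3, a tight junction scaffold, was counted 309, 514 and 384 times in METTL7A1 and 87, 120 and 90 times in mock libraries (log2 fold change 1.90, edgeR adjusted p = 1.88e-06). Ap1m2, the epithelial adaptor subunit, had a log2 fold change of 1.35 (edgeR adjusted p = 5.4e-06), and the claudin gene Cldn3 of 1.49 (edgeR adjusted p = 1.96e-05). These 4 genes were named for the smallest adjusted p of the list. That every METTL7A1 library lay above every mock library for them follows from this choice. The groups did not overlap for 51.6% of all genes tested. The neighbours of the 4 genes had medians of 0.08, 0.26, -0.20 and -0.13.

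Cdh1, the target by which EMT repressors are best known, did not differ detectably. It had 590, 646 and 609 cpm in METTL7A1 and 631, 676 and 565 cpm in mock libraries, which overlapped (log2 fold change -0.02, 95% interval -0.22 to 0.18, edgeR adjusted p = 0.879). Its 40 neighbours on chromosome 8 had a median log2 fold change of -0.29, and with that offset Cdh1 was at 0.27 (edgeR adjusted p = 0.0436). Cdh1 is itself among the 40 neighbours of Esrp2, 0.503 Mb away. The offset results of Cdh1 and Esrp2 thus draw on overlapping stretches of chromosome 8 and are not separate observations. Epcam had a log2 fold change of -0.16 (95% interval -0.41 to 0.09, edgeR adjusted p = 0.3), and its groups overlapped as well.

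The promoters of these targets were searched for the same E-box, CACCTG or CAGGTG. Of the 15 with a window, 11 held a match, against 20.7% of the 8911 tested genes with a window. Cdh1 was not among the 15. The list was made of known targets of the E-box repressors, so this share is not independent of the choice. The 250 bases before the start are printed for Ap1m2, which held the most matches in this stretch among the called targets, and for the abundant claudin gene Cldn4 (GRCm38.p6, - strand, 5′ to 3′; chr9:21312334-21312583 and chr5:134946935-134947184), with matches in capitals.
Ap1m2: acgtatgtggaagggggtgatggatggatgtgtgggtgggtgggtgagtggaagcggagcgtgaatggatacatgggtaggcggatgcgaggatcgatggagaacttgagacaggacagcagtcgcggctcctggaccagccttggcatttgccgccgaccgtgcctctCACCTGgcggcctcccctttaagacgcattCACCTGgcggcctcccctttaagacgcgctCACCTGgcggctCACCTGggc
Cldn4: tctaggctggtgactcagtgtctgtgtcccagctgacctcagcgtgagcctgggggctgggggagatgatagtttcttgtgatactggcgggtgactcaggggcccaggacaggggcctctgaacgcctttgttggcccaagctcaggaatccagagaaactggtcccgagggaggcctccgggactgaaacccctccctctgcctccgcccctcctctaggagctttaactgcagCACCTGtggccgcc
The 4 matches of Ap1m2 begin 81, 51, 21 and 9 bases before the start. The match of Cldn4 in this stretch begins 14 bases before the start, and another lies 12 bases into the transcript. Cldn4 rose from 152 ± 16.1 to 347 ± 55.5 cpm (SD, n = 3 each; log2 fold change 1.19, edgeR adjusted p = 2.4e-05).

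Of the 11 targets with a match, 7 were called higher and 1 lower, and 3 were not called (Crb3, Rab25 and Epcam). Of the 4 with a window and no match, 3 were called higher (Jup, Spint1 and Tjp1) and 1 lower (Lad1). Both sets thus held mostly genes called higher in the reported fit, and the difference between them was not tested. With the neighbour offset Spint1 was not called (log2 fold change 0.07, edgeR adjusted p = 0.634). Crb3 was then called higher (log2 fold change 0.60, edgeR adjusted p = 0.0309). Over all 24 targets the offset gave 13 called higher and 4 lower. Among all tested genes with a window, 24.8% of the 1846 with a match were called higher, and 21.7% of the 7065 without.

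**Figure D5:**
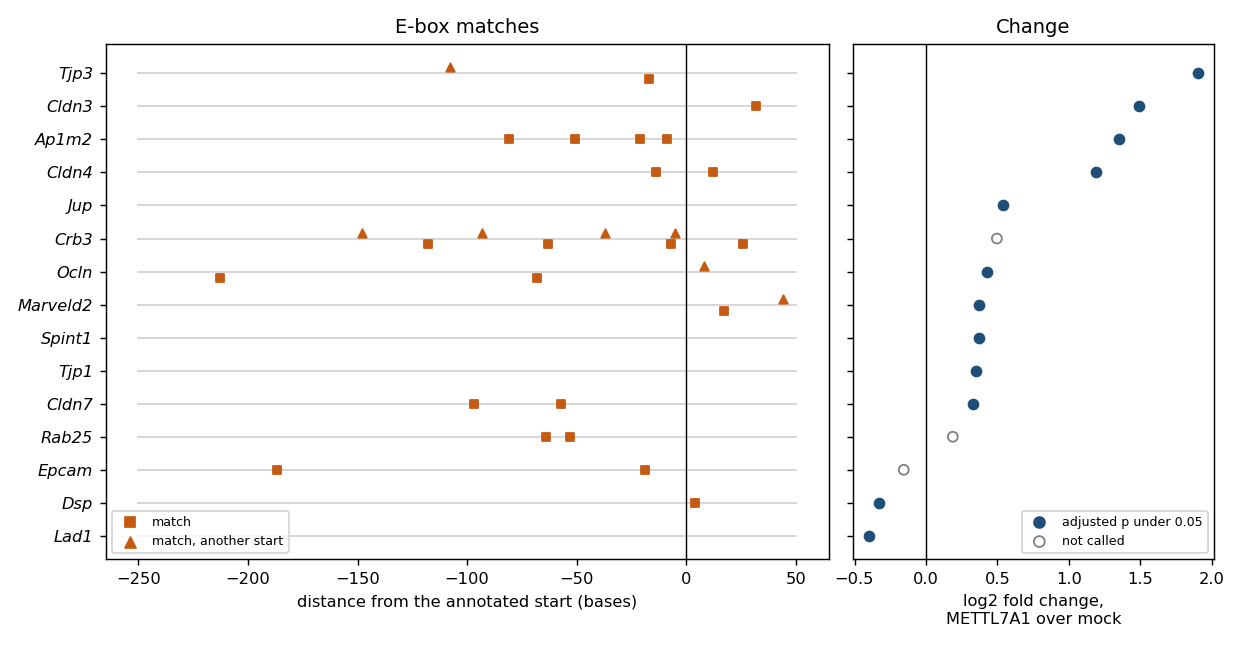
Position of each E-box match in the promoter windows of 15 epithelial targets, in bases from the annotated start (left, x axis; squares and triangles mark matches counted from different annotated starts), beside the log2 fold change of the gene (right, filled where the adjusted p was under 0.05). Where windows of a gene overlap, the same site is drawn from each start, as in Crb3, Marveld2 and Ocln. Genes are ordered by fold change, and matches occur both in Tjp3 at the top and in Epcam and Dsp near the bottom.

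Mesenchymal genes moved in both directions. Of 19 genes 10 were tested, with 4 called lower and 2 higher (21% and 21.1% of all genes) and a median of 0.10 on the log2 scale. Tnc (tenascin C) fell from 93.0 ± 10.0 to 11.3 ± 1.07 cpm (SD, n = 3 each; log2 fold change -3.04, edgeR adjusted p = 9.26e-09). Vim (vimentin) had 220, 264 and 272 cpm in METTL7A1 and 582, 613 and 498 cpm in mock libraries (log2 fold change -1.16, edgeR adjusted p = 1.17e-05), and Fstl1 had a log2 fold change of -1.17 (edgeR adjusted p = 0.000354). S100a4 rose instead, with a log2 fold change of 1.05 (edgeR adjusted p = 8.31e-06). The matrix gene Fn1 stood at 2485 and 2398 cpm in METTL7A1 and mock cells (log2 fold change 0.05, edgeR adjusted p = 0.761), and Cdh2 (N-cadherin) had 0 counts in every library. The basal keratin gene Krt14 was lower, at 9.79 against 37.8 cpm, and Krt5 had 0 counts.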

How the data were processed

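Per the labels, libraries were made with a stranded total RNA kit with ribosomal depletion and sequenced on a NovaSeq instrument. The authors trimmed reads with BBDuk, aligned pairs to mm10 with STAR 2.5.3a and assigned them to genes of Ensembl GRCm38.97 with featureCounts. The deposited values are raw counts per gene, not normalized, with the exon length in bases. Strand and multi-mapping settings are not given in the sources used here.

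The counts were fitted with edgeR 4.0.16 (R 4.3.3). The filter of the study, 1 cpm or more in 3 or more libraries, left 13166 genes. Scaling was by TMM, and the quasi-likelihood test compared METTL7A1 with mock without covariates. Adjustment was by Benjamini-Hochberg over all tested genes, and genes with an adjusted p under 0.05 were called. These p-values measure only the spread between the libraries of each line, which may be partly technical. SE is the log2 fold change divided by the square root of F. Abundances are cpm on TMM-scaled totals. The test was checked on simulated counts with changes larger than those of the regulators, so the check does not cover differences as small as theirs.

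Regulators and lists were chosen with earlier results of these data known, and so were the alternatives. The text names all 10 regulators, at most 4 called genes of each other list by smallest adjusted p, genes at 0 counts in every library, Cdh1, Vim, Epcam and Mettl7a1, and the 3 genes most correlated with Twist1. Genes named for their E-boxes, Fn1, Fbxl14, Grhl3, the overlapping genes and AY036118 were picked with their values in view. One called gene of the lists is not reported here by name. One list gene, Patj, was not found by this symbol in the table.

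Promoters and microRNAs come from RefSeq (GRCm38.p6), and untranslated regions from GENCODE M21 of the same build. Replicate numbers were taken from the titles; deviations of same-numbered libraries correlated at -0.15, 0.20 and -0.37, so the numbers were not taken as pairs. Alternatives were RLE and upper quartile scaling, no filter, a filter of 10 or more counts in each library, leaving out the 20 most abundant genes, the replicate block, omission of each library, DESeq2 1.42.0, limma voom (3.58.1), glmTreat against a log2 fold change of 1.5 and an offset by the neighbours' median (the 40 nearest genes with an average log2 cpm over 2). Figures were drawn with matplotlib 3.10.9.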

Additional observations from a re-analysis of the deposited data

How the results depend on the processing

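The number of regulators called was 2 in the reported fit and in 11 of 15 alternatives stayed within 1.5 times of it. It was 1 without the abundance filter (Twist1; Esrp1 had a log2 fold change of -0.22 and an adjusted p of 0.062, the cause was not tested). It was also 1 with the neighbour offset, where Esrp2 was called higher and neither Twist1 nor Esrp1 was called, an outcome of subtracting the neighbours' medians. Leaving out 1 library at a time gave 1 to 3 regulators called. With the replicate number as a block 2 were called, with adjusted p values of 0.00186 for Twist1 and 0.042 for Esrp1 (edgeR); 45 list genes were called under the block against 49, and 4810 of all genes against 5537. The direction of Twist1 and Esrp1 held in all 15 alternatives, Twist1 being called in 14 and Esrp1 in 11. The 3 regulators under the filter became 1 without it, since Zeb1 and Snai2 were then fitted. The genes past the thresholds of the study were 326, and 710 without the filter, 205 with at least 10 counts in every library and 122 with glmTreat. The filters change the set of genes fitted, and glmTreat is stricter by construction. List calls ranged from 44 to 55. With 3 libraries a group, an exact test of 1 value cannot go below 0.1, and under 3 counts no difference can be read for Snai2 and Twist2.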
